A study of Mus musculus with 11 samples.

Results

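Annexins are a family of calcium-dependent, phospholipid-binding proteins, and the 9 annexin genes described here (Anxa1 to Anxa8 and Anxa11) were found by their symbols among 24320 gene rows of mouse brain and brain tumor RNA. The family members were compared in 3 groups: 3 samples of normal brain, 4 NRAS tumors and 4 PDGFB tumors. The tumors came from the Sleeping Beauty system, in which a transposase inserts genes from injected plasmids into host cells. Newborn mice received, in a lateral ventricle, plasmids for the transposase, a firefly luciferase, the SV40 large T antigen (which binds p53 and Rb) and either NRAS with the activating G12V change or PDGFB. Both tumor groups thus share large T, luciferase and the transposase, and differ in the last gene. The NRAS protein is a small GTPase that signals to MAPK, while PDGFB is a secreted ligand of PDGF receptors. Tissue was dissected by GFP fluorescence midway through tumor growth, from regions with GFP for tumor and, per the protocol, regions without it for tumor-free tissue. Normal brain is labelled as wild-type control. In the titles, normal brain 1 is matched with NRAS tumor 2, and normal brain 3 with PDGFB tumor 1; whether a matched pair came from 1 animal is not stated. The strain is given as B6 for every library but normal brain 3, which is FVB, while the series' design text names FVB for all mice. No label gives the age at dissection, and separate animals within a group are not named, so a p-value here reflects only how far these libraries varied, which may be technical.

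As background, annexins carry a conserved core that binds membranes rich in acidic lipids when calcium is present, and a variable N-terminal part that binds partners. Anxa1 encodes a protein induced by glucocorticoids that signals through formyl peptide receptors and limits inflammation. Anxa2 encodes a protein that forms a complex with S100A10, links membranes to actin and serves as a cell-surface site for plasminogen activation. Anxa5 binds phosphatidylserine and is widely used to stain dying cells. Several family members take part in the repair of torn plasma membranes.

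Levels are given as FPKM, fragments scaled by transcript length and by library total, so levels of different genes can be set side by side. The files give no read counts, and depth in reads is unknown; from the steps between low values, the libraries' relative depths ran from 0.763 to 1. Between 12705 and 13923 genes reached 1 FPKM in a library. The tumor samples were bulk tissue with other cells in it. Summed FPKM of 8 neuron markers ran from 2487 to 2914 in normal brain, 246 to 1212 in NRAS tumors and 119.7 to 681 in PDGFB tumors, and the defining markers Snap25 and Rbfox3 were present in all 11 libraries. Summed FPKM of 7 monocyte and macrophage markers ran from 9.64 to 12.03 in normal brain, 168 to 1936 in NRAS tumors and 29.4 to 63.6 in PDGFB tumors. The numbers that open the sample titles form 2 series. Numbers 1834 to 1838 hold the 3 normal brains with NRAS tumors 1 and 2, numbers 2038 to 2046 hold the other 2 NRAS tumors with every PDGFB tumor, and no label says what the numbers mark.

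The sequence just before the transcription start was read from RefSeq windows of 250 bases on GRCm38.p6, which held 7 of the 9 members (9 windows). Anxa3 and Anxa6 had no window, so they were not searched for motifs. 3 are shown: Anxa2 because it had the largest change of the family in NRAS tumors, and Anxa7 and Anxa11 because they fell in PDGFB tumors. The Anxa2 window is shown up to the first base that GENCODE annotates as untranslated region (187 of its 250 bases). Capitals mark matches, on either strand, to the AP-1 motif TGANTCA, the TATA box TATAAA or the GC box GGGCGG. The CCAAT box (CCAAT) was searched too and was in none of the 9 windows.
Anxa2, chr9:69453433-69453619, plus strand: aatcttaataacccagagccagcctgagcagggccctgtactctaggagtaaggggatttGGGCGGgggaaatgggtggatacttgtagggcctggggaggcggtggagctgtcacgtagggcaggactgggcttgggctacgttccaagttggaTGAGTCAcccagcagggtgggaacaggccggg
Anxa7, chr14:20480134-20480383, minus strand: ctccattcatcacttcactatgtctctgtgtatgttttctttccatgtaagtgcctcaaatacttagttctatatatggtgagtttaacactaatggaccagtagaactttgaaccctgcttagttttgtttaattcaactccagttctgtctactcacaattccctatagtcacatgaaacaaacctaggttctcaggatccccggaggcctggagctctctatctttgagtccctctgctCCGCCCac
Anxa11, chr14:25841905-25842154, plus strand: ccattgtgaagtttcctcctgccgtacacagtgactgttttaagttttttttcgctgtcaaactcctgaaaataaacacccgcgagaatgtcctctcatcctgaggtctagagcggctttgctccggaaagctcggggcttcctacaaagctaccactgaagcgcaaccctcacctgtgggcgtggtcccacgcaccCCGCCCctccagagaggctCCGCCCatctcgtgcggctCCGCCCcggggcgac
The Anxa2 window held 1 AP-1 match, whose first base lies 95 bases before the start. It was the only one of the 9 annexin windows with this motif, which 6.75% of 32851 RefSeq windows of this length held. TATA boxes began 32 bases before the RefSeq start of Anxa1 and 17 before that of Anxa2 (12.4% of all windows), and no other annexin window had one. Both lie in bases that GENCODE places in a longer transcript of the same gene and are not shown. GC boxes (32.7% of all windows) were in 4 annexin windows. Anxa2 had 3 matches (the first in the stretch shown) and Anxa11 had 3. The Anxa7 window shown had 1, and the window of another Anxa7 start, not shown, had 4. Anxa7 and Anxa11, which fell together in PDGFB tumors, thus both had GC boxes, and so did Anxa2, which rose. These are matches of letters and not sites shown to be bound.

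All 9 genes are protein-coding, and 3 of them (Anxa7, Anxa8 and Anxa11) lie on chromosome 14. Positions in the GRCm38 annotation are chromosome 19, 20373428 to 20390944, for Anxa1, chromosome 9, 69453620 to 69491795, for Anxa2, and chromosome 14, 20455260 to 20480133, for Anxa7. Anxa6, on chromosome 11 at 54979108 to 55033445, has 26 exons in its longest transcript against 9 to 14 in the others, and its protein is known to carry a doubled core. Genes on the opposite strand overlap 5 of the annexin genes, and no source used here says whether reads were counted by strand, so reads of such pairs cannot be told apart. Of these, 1500015L24Rik (over Anxa1) reached at most 1.16 FPKM and A630023A22Rik (over Anxa8) at most 0.0619. Gm16144 (over Anxa2), Gm44036 (over Anxa4) and Anxa11os (over Anxa11) are not among the gene rows, so their levels are unknown.

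In normal brain, the order of levels was led by Anxa5, Anxa6 and Anxa7. Anxa5 stood at 85.6, 59.96 and 78.9 FPKM in normal brains 1 to 3. Anxa6, whose protein binds endosomes and RAS-GAP, stood at 46.6, 40.65 and 51.4. Anxa7, a fusogenic annexin also called synexin, stood at 31.8, 36.5 and 28.6. These 3 genes did not overlap with each other or with the next, Anxa2 (15.75, 14.5 and 10.8 FPKM). Anxa2 and Anxa11 (8.12, 11.3 and 12.7) were neighbours whose ranges overlapped. Anxa3, Anxa4 and Anxa1 followed at means of 6.07 ± 0.723, 4.27 ± 0.660 and 2.815 ± 0.772 FPKM (SD, n = 3), each apart from the next. Anxa8 was lowest, at 0.716, 0.739 and 0.517 FPKM.

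**Figure D1:**
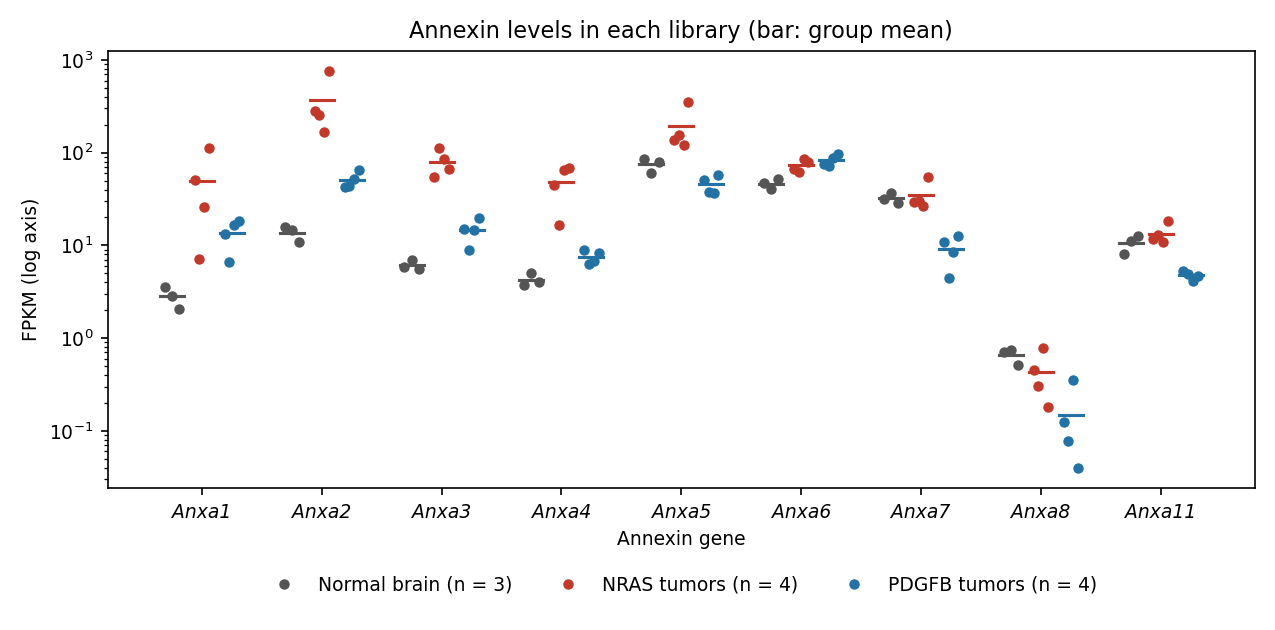
FPKM (log axis) of the 9 annexin genes in 3 normal brains, 4 NRAS tumors and 4 PDGFB tumors; each point is a library and each bar a group mean. Anxa2 in NRAS tumors (168.5 to 767 FPKM) sits above every other group and gene but Anxa5 in NRAS tumors (120.5 to 353.5), while Anxa7 and Anxa11 in PDGFB tumors sit below normal brain.

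NRAS tumors were compared with normal brain to see which annexins differ between these 2 groups. Anxa1, Anxa2, Anxa3, Anxa4, Anxa5 and Anxa6 rose, Anxa7 and Anxa11 did not pass the test, and Anxa8 stayed below the level needed for testing. Of 8 members tested, 6 rose and 0 fell (adjusted p under 0.05, limma on log2(FPKM + 1)), where 32.0% of all 14491 genes tested rose and 30.3% fell. By more than 1 on the log2 scale, 5 of the 8 rose and 0 fell, against 17.7% and 15.7% of all genes. The 6 that rose had NRAS tumors wholly above normal brain, which held for 33.2% of all genes. The median log2 fold change of the 8 members was 2.14, against 0.01 for all genes. With 62.3% of genes called in this comparison, a call alone is common, and the size of the change says more.

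Anxa2 had the largest change of the family. Its levels were 281, 252, 168.5 and 767 FPKM in the 4 NRAS tumors in order, against 10.8 to 15.75 in normal brain. All 4 tumors lay far above normal brain, and NRAS tumor 4 was far above the other 3. Its log2 fold change was 4.42 ± 0.40 (SE, adjusted p = 1.765e-05), larger than that of 99.4% of genes tested. Without NRAS tumor 4 it was 3.98 (adjusted p = 3.18e-06). Within title numbers 1834 to 1838, with 2 tumors against 3 normal brains, it was 4.199 (adjusted p = 0.000655).

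Anxa3, whose protein is abundant in neutrophils, had levels of 54.5, 111, 86.4 and 65.9 FPKM in the 4 NRAS tumors, against 5.52 to 6.89 in normal brain. The groups were far apart, and NRAS tumor 2, not tumor 4, was highest. The log2 fold change was 3.46 ± 0.27 (adjusted p = 6.275e-06). Within title numbers 1834 to 1838 it was 3.49 (adjusted p = 0.00277).

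Anxa1 varied most among the NRAS tumors, with values of 50.8, 7.16, 26.1 and 112 FPKM, against 2.045 to 3.59 in normal brain. NRAS tumor 2 was low and lay nearest to normal brain, and the groups did not overlap. The log2 fold change was 3.165 ± 0.695 (SE, adjusted p = 0.00258), and it ran from 2.58 without NRAS tumor 4 to 3.85 without NRAS tumor 2. Within title numbers 1834 to 1838 it was 2.45 (adjusted p = 0.0441). The low Anxa1 of NRAS tumor 2 came with the lowest sum of the monocyte and macrophage markers among the NRAS tumors (168 FPKM, against 635, 929 and 1936 in tumors 1, 3 and 4), 5 of whose 7 genes rose in NRAS tumors (32.0% of all genes did). NRAS tumor 2 also had the lowest sums among the NRAS tumors for T and NK cell (7.50 FPKM), neutrophil (10.28) and B cell markers (0.987). Its sums were the highest of the NRAS tumors for neuron (1212) and myelinating oligodendrocyte markers (1629), while its microglia sum (249.5) was not the lowest. The part of any of these markers in the Anxa1 level was not tested. In bulk tissue, more cells of a type and more RNA per cell cannot be told apart.

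Anxa4, expressed in secretory epithelia and able to change ion conductance and exocytosis, stood at 44.4, 16.5, 64.5 and 68.9 FPKM against 3.77 to 5.02 in normal brain. Here too NRAS tumor 2 was lowest while still above all normal brains. The log2 fold change was 3.06 ± 0.39 (adjusted p = 0.000142), and 2.43 within title numbers 1834 to 1838 (adjusted p = 0.0118).

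Anxa5 and Anxa6, the leading annexins of normal brain, had smaller changes. Anxa5 stood at 139, 154, 120.5 and 353.5 FPKM in NRAS tumors, with tumor 4 standing apart from the other 3. Its log2 fold change of 1.22 ± 0.33 (adjusted p = 0.007645) was 0.88 without NRAS tumor 4 (adjusted p = 0.00486) and 0.97 within title numbers 1834 to 1838 (adjusted p = 0.0186). Taking the title number series as a covariate ended the call of Anxa5 (log2 fold change 0.97, adjusted p = 0.0578). Anxa6 stood at 66.8, 61.1, 85.3 and 80.05 FPKM, close together and above the 40.65 to 51.4 of normal brain. The change was 0.65 ± 0.155 on the log2 scale (adjusted p = 0.00415), and within title numbers 1834 to 1838 it was 0.465 and did not pass (adjusted p = 0.0596).

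Anxa7 and Anxa11 overlapped with normal brain in NRAS tumors. Anxa7 stood at 29.5, 30.2, 26.6 and 54.4 FPKM, with tumors 1 and 2 in the range of normal brain, tumor 3 below it and tumor 4 above it. Its log2 fold change was 0.07 ± 0.31 (adjusted p = 0.863), and its sign turned in 6 of the 25 other settings. Anxa11, whose protein tethers RNA granules to lysosomes in neurons, stood at 11.7, 12.96, 10.8 and 18.2 FPKM (log2 fold change 0.30 ± 0.195, adjusted p = 0.204). Both genes thus had their highest value in NRAS tumor 4, and neither change passed the test.

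PDGFB tumors were then compared with the same normal brains. Here the annexins went in both directions: Anxa1, Anxa2, Anxa3 and Anxa6 rose, Anxa7 and Anxa11 fell, and Anxa4 and Anxa5 did not pass. Of 8 members tested, 4 rose and 2 fell, where 29.3% of all genes rose and 29.2% fell (58.5% in either direction). By more than 1 on the log2 scale, 3 rose and 2 fell, against 14.2% and 16.7% of all genes. PDGFB tumors lay wholly above normal brain for 5 of the 8 and wholly below for 3, against 33.8% and 32.0% of all genes, so none of the 8 overlapped. The median log2 fold change of the 8 was 0.76, against 0.04 for all genes. No title number series holds both PDGFB tumors and normal brain, so the series and the tumor cannot be told apart in this comparison. A fit with the series as a covariate, which reaches PDGFB tumors only through the NRAS tumors, called 2 of the 8, both lower.

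The falls of Anxa7 and Anxa11 were called in each of the 24 other settings run, that covariate included. Anxa7 measured 10.9, 4.50, 8.40 and 12.6 FPKM in the 4 PDGFB tumors in order, against 28.6 to 36.5 in normal brain. Every PDGFB tumor had less than the lowest normal brain, and tumor 2 had least. The log2 fold change was -1.79 ± 0.31 (SE, adjusted p = 0.000656), a ratio of mean FPKM of 0.282. Anxa11 stood at 5.31, 4.86, 4.17 and 4.67 FPKM, close together and below the 8.12 to 12.7 of normal brain. Its log2 fold change was -1.005 ± 0.195 (adjusted p = 0.00125). With the series as a covariate the values were -2.14 for Anxa7 (adjusted p = 0.0138) and -1.18 for Anxa11 (adjusted p = 0.0231).

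Of the 4 annexins that rose, Anxa1, Anxa2 and Anxa3 had smaller log2 fold changes than in NRAS tumors, and the models differed by test in Anxa2 and Anxa3. Anxa2 stood at 42.8, 43.6, 52.55 and 64.7 FPKM (log2 fold change 1.82 ± 0.40, adjusted p = 0.00274). Anxa1 stood at 13.3, 6.69, 16.5 and 18.5 FPKM, all above normal brain, with PDGFB tumor 2 lowest. Its log2 fold change of 1.89 ± 0.695 was the least firmly called (adjusted p = 0.0361), and leaving out any normal brain or PDGFB tumor 1, 3 or 4 ended the call (adjusted p = 0.0621 to 0.104). Anxa3 stood at 14.8, 8.84, 14.8 and 19.5 FPKM (1.09 ± 0.27, adjusted p = 0.00498). Again tumor 2 was lowest and all 4 were above normal brain. Anxa6 stood at 74.7, 71.04, 88.5 and 96.2 FPKM, with a log2 fold change of 0.82 ± 0.155 (adjusted p = 0.0011). With the series as a covariate none of these 4 passed. The log2 fold change of Anxa1 was then 0.46 (adjusted p = 0.7575), that of Anxa2 1.38 (adjusted p = 0.132), that of Anxa3 1.14 (adjusted p = 0.0809) and that of Anxa6 0.45 (adjusted p = 0.139).

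Anxa4 and Anxa5 differed from normal brain in every PDGFB tumor, in opposite directions, without passing the test. Anxa4 stood at 9.01, 6.23, 6.835 and 8.22 FPKM, above the 3.77 to 5.02 of normal brain (log2 fold change 0.70 ± 0.39, adjusted p = 0.149). Anxa5 stood at 50.6, 37.45, 37.1 and 58.1 FPKM, below the 59.96 to 85.6 of normal brain (-0.71 ± 0.33, adjusted p = 0.0847). All 3 groups share 1 estimate of the spread for each gene, and the NRAS tumors varied most in both. With only PDGFB tumors and normal brain in the fit, Anxa4 (adjusted p = 0.00643) and Anxa5 (adjusted p = 0.0139) both passed. With the series as a covariate, Anxa4 turned to -0.565 (adjusted p = 0.352) and Anxa5 was -1.20 (adjusted p = 0.101), and neither passed. Anxa8 stood at 0.124, 0.0772, 0.349 and 0.0393 FPKM, all below normal brain, and at 0.455, 0.308, 0.779 and 0.179 in NRAS tumors, which overlapped it. Such values rest on few reads. With no filter on low values, Anxa8 was lower in PDGFB tumors (log2 fold change -0.535, adjusted p = 0.00864) and did not pass in NRAS tumors (-0.23, adjusted p = 0.193).

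The tumor models were compared directly. Every annexin tested but Anxa6 was higher on average in NRAS than in PDGFB tumors, and Anxa2, Anxa3, Anxa4, Anxa5, Anxa7 and Anxa11 passed the test. Of 8 members, 6 were higher and 0 lower, where 14.3% of all genes were higher and 12.2% lower (26.6% in either direction). All 6 differed by more than 1 on the log2 scale, where 9.31% of all genes were higher and 3.09% lower by as much. The same 6 had no overlap between the models, against 12.9% of all genes. The log2 differences were 2.60 ± 0.37 (SE) for Anxa2 (adjusted p = 0.0011), 2.37 ± 0.25 for Anxa3 (adjusted p = 0.000261) and 2.36 ± 0.36 for Anxa4 (adjusted p = 0.00144). For Anxa5 the difference was 1.93 ± 0.30 (adjusted p = 0.001625), and this is the one gene whose mean was above normal brain in NRAS tumors and below it in PDGFB tumors beyond overlap in both. For Anxa7 it was 1.86 ± 0.29 (adjusted p = 0.00145) and for Anxa11 1.30 ± 0.18 (adjusted p = 0.000964), and in these the PDGFB tumors were the group that stood away from normal brain. The median over the 8 members was 1.89, against -0.04 for all genes.

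Within title numbers 2038 to 2046, which hold NRAS tumors 3 and 4 and all 4 PDGFB tumors, the same 6 annexins passed. The log2 differences there were 2.82 for Anxa2, 2.35 for Anxa3, 2.99 for Anxa4, 2.175 for Anxa5, 2.03 for Anxa7 and 1.39 for Anxa11 (adjusted p = 0.000152 to 0.0133). Anxa1 and Anxa6 did not pass between the models. Anxa1 differed by 1.28 ± 0.64 (adjusted p = 0.168), and the value of NRAS tumor 2 (7.16 FPKM) lay among those of the PDGFB tumors. It passed without NRAS tumor 2 (1.96, adjusted p = 0.00838), fell to 0.70 without NRAS tumor 4 (adjusted p = 0.418) and was 1.99 within title numbers 2038 to 2046 (adjusted p = 0.0507). Anxa6 differed by -0.17 ± 0.14 (adjusted p = 0.415), with overlapping groups.

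Markers of several cell types differed between the models. Between NRAS and PDGFB tumors, 5 of 7 monocyte and macrophage markers, 4 of 6 microglia markers and 5 of 6 tested T and NK cell markers were higher and none lower, and all 5 oligodendrocyte progenitor markers were lower, where 14.3% of all genes were higher and 12.2% lower. Summed FPKM of the microglia markers ran from 228 to 387 in NRAS tumors, 91.45 to 202 in PDGFB tumors and 126 to 152.5 in normal brain. For T and NK cells the sums were 7.50 to 199.7, 0.414 to 1.47 and 1.59 to 6.96. For oligodendrocyte progenitors they were 135 to 648.5, 1219 to 1524 and 90.4 to 151. In bulk tissue these markers cannot be assigned to tumor cells or to other cells. Their part in the annexin differences was not tested.

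**Figure D2:**
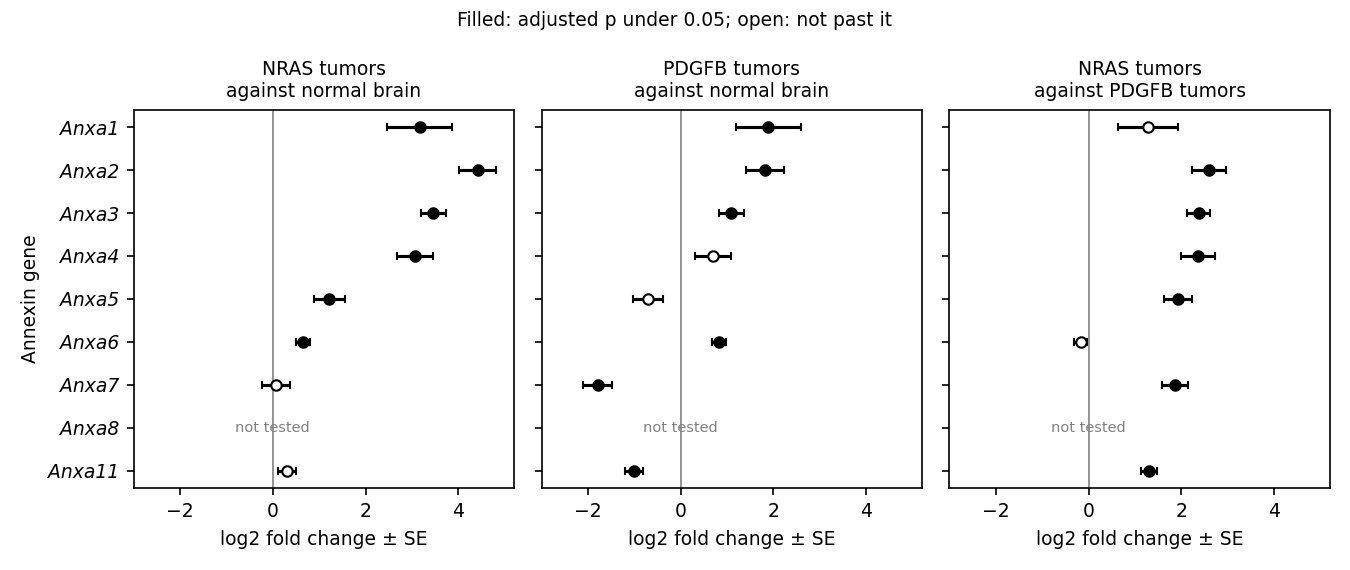
Change of each annexin in the 3 comparisons, as a log2 ratio of FPKM + 1, with its standard error; filled points have an adjusted p under 0.05 and open points do not. Anxa1 to Anxa6 are filled on the right of 0 in NRAS tumors against normal brain, Anxa7 and Anxa11 are filled on the left in PDGFB tumors, and 6 genes are filled on the right between the models.

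Together the 9 annexins made up 202, 178 and 194.5 FPKM in normal brains 1 to 3, 678, 645, 589.5 and 1520.0 in NRAS tumors 1 to 4 and 222, 183, 229 and 282.5 in PDGFB tumors 1 to 4. The NRAS tumors had more summed annexin RNA than any other library. PDGFB tumor 2 lay in the range of normal brain, and the other 3 PDGFB tumors above it. Total FPKM over all genes differed between libraries, from 460324 in normal brain 2 to 941667 in PDGFB tumor 4. The annexin sums were not scaled to these totals. PDGFB tumors 3 and 4 had the highest totals (775054 and 941667), so their place above normal brain may depend on this. The make-up of the sum differed between the groups. Anxa5 held 38.9% ± 4.65 of it in normal brain (SD, n = 3), Anxa2 held 39.9% ± 8.99 in NRAS tumors (n = 4) and Anxa6 held 36.3% ± 2.77 in PDGFB tumors (n = 4). The share of Anxa2 was 7.17% ± 1.40 in normal brain and 22.2% ± 1.997 in PDGFB tumors, so no group overlapped another in it. Anxa6 ranged from 22.8% to 26.4% in normal brain, 5.27% to 14.5% in NRAS tumors and 33.7% to 38.75% in PDGFB tumors, apart in all 3 groups as well. Anxa7 took 14.7% to 20.5% of the sum in normal brain, 3.58% to 4.68% in NRAS tumors and 2.46% to 4.915% in PDGFB tumors. Its share thus overlapped between the tumor models although its level did not. These shares are descriptions, with no test.

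**Figure D3:**
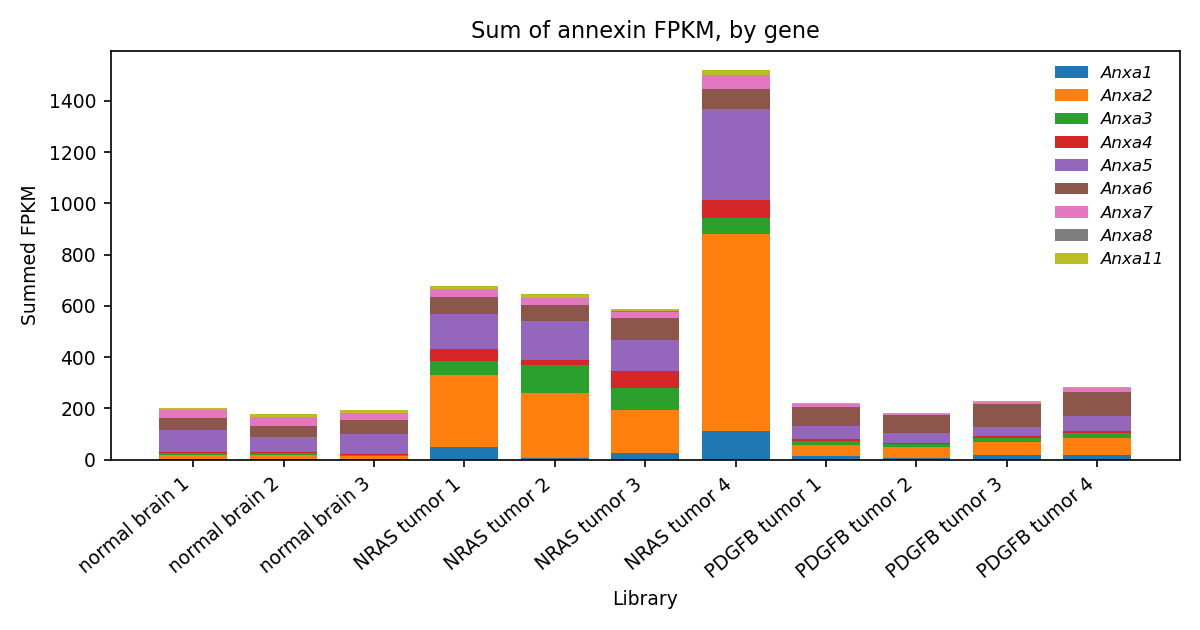
Summed FPKM of the 9 annexins in each of the 11 libraries, with 1 colour per gene. NRAS tumor 4 reaches 1520.0 FPKM, the other NRAS tumors 589.5 to 678, and normal brain and PDGFB tumors stay at 282.5 or less, with Anxa2 as the widest band in the NRAS tumors.

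The order of levels changed with the tumor as well. In NRAS tumors Anxa2 led in all 4 libraries over Anxa5, though the ranges of these neighbours overlapped across libraries, and Anxa3, Anxa6, Anxa1, Anxa4 and Anxa7 followed with ranges that overlapped from each to the next. Within each library Anxa11 (10.8 to 18.2 FPKM) was below all of them, except that Anxa1 was lower still in NRAS tumor 2. In PDGFB tumors Anxa6 led, apart from the next, followed by Anxa2 and Anxa5, whose ranges overlapped. Anxa3, Anxa1, Anxa7 and Anxa4 came next with overlapping ranges, and Anxa11 lay apart below Anxa4, with a mean of 4.75 ± 0.473 FPKM (SD, n = 4). Spread between libraries also depended on the gene. As a coefficient of variation in NRAS tumors it was 93.04% for Anxa1, 73.7% for Anxa2 and 15.4% for Anxa6. In PDGFB tumors it was 38.65% for Anxa7, 37.5% for Anxa1 and 9.95% for Anxa11.

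The labelled matches gave single ratios with no replicate. NRAS tumor 2 had 19.2 times the Anxa3, 16 times the Anxa2 and 4.38 times the Anxa4 of normal brain 1, and only 1.995 times its Anxa1. PDGFB tumor 1 had 6.52 times the Anxa1 and 3.95 times the Anxa2 of normal brain 3, and 0.381 times its Anxa7 and 0.419 times its Anxa11. By the labels, this PDGFB pair crosses strain (B6 and FVB) and title number series, while the NRAS pair crosses neither. Anxa1 and Anxa6 were the members with a larger ratio in the PDGFB pair than in the NRAS pair.

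Genes of annexin partners were examined as a list of 9. The S100 proteins are small calcium sensors that bind the N-termini of annexins, S100A10 that of annexin A2, S100A11 that of annexin A1 and S100A6 that of annexin A11. Of the 9 genes, 6 rose and 1 fell in NRAS tumors against normal brain, 3 rose and 1 fell in PDGFB tumors, and 5 were higher and 0 lower in NRAS than in PDGFB tumors. Over all genes tested, 32.0% rose and 30.3% fell in NRAS tumors, 29.3% rose and 29.2% fell in PDGFB tumors, and 14.3% were higher and 12.2% lower between the models, so the count that rose in PDGFB tumors is near the share of all genes. S100a11 stood at 14.8, 13.2 and 11.6 FPKM in normal brain, 325, 269, 219.6 and 944 in NRAS tumors and 66.1, 53.02, 72.4 and 113 in PDGFB tumors. Its log2 fold changes were 4.70 ± 0.43 (adjusted p = 1.71e-05) in NRAS and 2.39 ± 0.43 (adjusted p = 0.000778) in PDGFB tumors. S100a11 was the candidate gene with the most Anxa2-like pattern of 11433. S100a10 stood at 37.03, 36.4 and 19.0 FPKM in normal brain, 236, 257, 177 and 311 in NRAS tumors and 27.35, 45.9, 38.7 and 58.1 in PDGFB tumors. The partner gene of Anxa2 thus rose in NRAS tumors (2.98 ± 0.29, adjusted p = 2.74e-05) and overlapped normal brain in PDGFB tumors (0.46 ± 0.29, adjusted p = 0.199), where Anxa2 itself rose. S100a6 (3.685) and S100a4 (3.52) rose in NRAS tumors as well, and S100a4 rose in PDGFB tumors (1.45, adjusted p = 0.022). Between the models the log2 differences were 2.52 for S100a10, 2.31 for S100a11, 2.235 for S100a6 and 2.07 for S100a4. S100b fell in both models (-1.72 and -1.32). Pdcd6, whose protein binds annexins A7 and A11, rose by 0.37 in PDGFB tumors (adjusted p = 0.0257) and by 0.36 in NRAS tumors (adjusted p = 0.0291), and the difference of -0.015 between the models did not pass (adjusted p = 0.941).

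**Figure D4:**
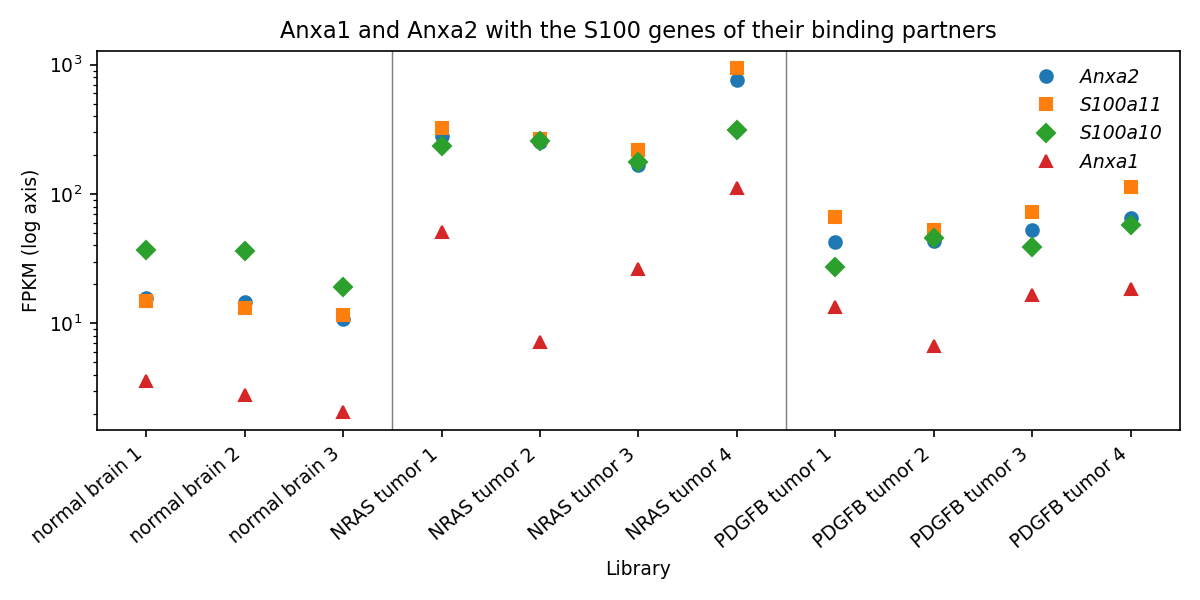
FPKM (log axis) of Anxa1, Anxa2, S100a10 and S100a11 in each library; vertical lines part the groups. S100a11 lies close to Anxa2 in normal brain and above it in all 8 tumors. S100a10 exceeds Anxa2 in normal brain (19.0 to 37.03 against 10.8 to 15.75 FPKM). It lies below Anxa2 in NRAS tumors 1 and 4 and in PDGFB tumors 1, 3 and 4. Anxa1 is low in NRAS tumor 2.

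Plasminogen activation at the cell surface, in which annexin A2 takes part, was represented by 5 genes, of which 4 were tested. All 4 rose in NRAS tumors, 3 rose in PDGFB tumors and 3 were higher in NRAS than in PDGFB tumors, where 32.0%, 29.3% and 14.3% of all genes did so. The urokinase receptor gene Plaur had log2 fold changes of 4.69 ± 0.30 (adjusted p = 2.14e-06) and 2.49 ± 0.30 (adjusted p = 7.45e-05) in NRAS and PDGFB tumors. The tissue activator gene Plat rose by 2.88 and 1.70, and the plasminogen receptor gene Plgrkt by 1.51 and 1.81. The urokinase gene Plau rose by 3.56 in NRAS tumors and did not pass in PDGFB tumors (1.42, adjusted p = 0.0521). Between the models the log2 differences were 2.196 for Plaur, 2.14 for Plau and 1.19 for Plat. Plasminogen itself (Plg) was at or under 0.0835 FPKM in all libraries.

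Of the formyl peptide receptor genes, through which annexin A1 signals, none reached the level for testing. Fpr2 measured 0.262 to 0.448 FPKM in normal brain, 0.9145, 0.5195, 2.69 and 13.7 in NRAS tumors 1 to 4 and 0 to 0.411 in PDGFB tumors. Fpr1 reached 6.76 FPKM in NRAS tumor 4 and at most 0.744 elsewhere, and Fpr3 is listed at 0 in every library. NRAS tumor 4 thus had the highest Anxa1 and the highest level of both receptor genes.

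Among membrane repair genes, 9 were tested. Against normal brain, 6 rose and 1 fell in NRAS tumors, and 1 rose and 1 fell in PDGFB tumors. Between the models, 4 were higher and 1 lower in NRAS than in PDGFB tumors. The PDGFB counts are below the shares of all genes (29.3% higher and 29.2% lower), while 32.0% rose and 30.3% fell in NRAS tumors and 14.3% were higher and 12.2% lower between the models. Myof, a relative of dysferlin, rose by 2.77 ± 0.49 in NRAS tumors (adjusted p = 0.000805) and did not pass in PDGFB tumors (-0.15, adjusted p = 0.814), and differed by 2.92 between the models (adjusted p = 0.00153). The calpain gene Capn1 fell in PDGFB tumors (-1.23, adjusted p = 0.00231) and was higher in NRAS than in PDGFB tumors (1.82, adjusted p = 0.000834), with an adjusted p of 0.0716 in NRAS tumors against normal brain. Its small subunit gene Capns1 rose in both models (0.92 and 0.585), and Capn2 rose in NRAS tumors (0.84) and was higher there than in PDGFB tumors (0.66). Vps4a, of the ESCRT machinery, fell in NRAS tumors (-0.77), and Pdcd6ip, which encodes ALIX, was higher in NRAS than in PDGFB tumors (0.56).

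Genes that place phosphatidylserine, the lipid bound by annexin A5, on either side of the membrane were called against normal brain about as often as all genes. Of 8, 3 rose and 2 fell in NRAS tumors, 2 rose and 2 fell in PDGFB tumors, and 2 were higher and 0 lower between the models, against 32.0% and 30.3%, 29.3% and 29.2%, and 14.3% and 12.2% of all genes. The scramblase gene Ano6 rose by 1.60 and 1.985 in NRAS and PDGFB tumors, while the flippase gene Atp8a1 (-1.21 and -1.49) and its subunit gene Tmem30a (-0.87 and -0.865) fell. Plscr1 rose by 2.28 in NRAS tumors and was higher there than in PDGFB tumors by 1.49, and Plscr3 rose in both models (0.93 and 0.405) and differed by 0.525 between them. Of 10 tested genes for recognition of this lipid, 7 rose and 1 fell in NRAS tumors, 2 rose and 2 fell in PDGFB tumors, and 4 were higher and 0 lower between the models. The same shares of all genes apply, and for a list of 10 genes the counts in PDGFB tumors are near them. The bridging protein gene Pros1 rose in both (2.75 and 2.175), as did the integrin gene Itgav (1.68 and 2.195 in NRAS and PDGFB tumors). The receptor genes Axl and Timd4 rose in NRAS tumors (2.27 and 2.21) and were higher there than in PDGFB tumors (1.71 and 2.15), as was the integrin gene Itgb5 (1.54). The receptor gene Mertk rose in NRAS tumors (0.70), fell in PDGFB tumors (-1.19) and differed by 1.89 between them (adjusted p = 0.000285), and Tyro3 fell in both (-1.46 and -1.58). Counts of these lists leave out members below the filter, and 3 further annexin genes added no call: Anxa9 (0.709 to 3.83 FPKM over all libraries) did not pass in any comparison, while Anxa10 and Anxa13 stayed at or under 0.164 FPKM and were not tested.

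For each annexin, the genes with the most similar pattern were found as those with the smallest root mean square difference of log2(FPKM + 1) over the 11 libraries, each gene centred on its mean, among 11433 candidates (11434 for Anxa8). All points share libraries, and the measure is a description. Nearest to Anxa2 were S100a11 (0.27), Emp3 (0.39) and Areg (0.40), where the median candidate differed by 1.88. Nearest to Anxa1 were Cnn2 (0.44), Plau (0.50) and Plin2 (0.53), against a median of 1.56. Anxa3 was followed by Hbegf (0.34), Ecm1 (0.375) and Epha2 (0.38), among them an EGF receptor ligand and an ephrin receptor. Anxa4 lay nearest to Cd84 (0.18), C3ar1 (0.225) and Unc93b1 (0.23), genes known from immune cells, against a median of 1.46. Cd84 measured 15.9, 7.32, 28.1 and 28.6 FPKM in the 4 NRAS tumors in order, with tumor 2 lowest as for Anxa4. Cd84 was picked for its likeness to Anxa4 in these same libraries, so this likeness is no separate support. Anxa7 was nearest to Stxbp2 (0.29), Man1a (0.30) and Efnb2 (0.30). Anxa5 was nearest to Cib1 (0.27), Aldh2 (0.29) and Lxn (0.29). For Anxa6 (Polr3c, Aven and Ctdnep1 at 0.12 to 0.14) and Anxa8 (Ikbkg, Cyb5b and Exoc2 at 0.135 to 0.141), whose own spread around the mean was only 0.38 and 0.27, small differences say little. Among the annexins themselves, Anxa7 and Anxa11 were the closest pair (0.48), and Anxa2 and Anxa3 differed by 0.75.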

How the data were processed

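RNA of 11 bulk tissue samples was sequenced. The authors deposited 1 table of FPKM per gene symbol and library, made with TopHat2 2.0.13 and Cufflinks 2.2.1 on mm10, per the submitters' processing notes; their settings, annotation and strand are not stated in the sources used here. Of 24347 rows, 27 with date-like names were left out. Genes with at least 1 FPKM in at least 3 libraries (14491) were tested on log2(FPKM + 1) with limma 3.58.1 in R 4.3.3, in 1 fit of all 11 libraries with a mean per group, a mean-variance trend and two-sided Benjamini-Hochberg adjusted p-values (threshold 0.05). A pseudocount of 1 understates changes of low genes. The script was tested on simulated data. FPKM hold no read counts, so no counting interval was computed.

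All 9 annexins were named; of each pathway list up to 4 genes per comparison, those called with the largest change (with their values in the other comparisons), and for each annexin the 3 nearest genes, among genes with a mean of at least 5 FPKM in a group, without predicted, small RNA and date-like names. The nearest genes of Anxa11 are not reported here. Members and lists were chosen with earlier results of these data known. Alternatives changed the pseudocount, filter, scaling, samples in the fit, variance model, sample weights, blocks, title number series and each left-out library. Replicate numbers do not pair the samples: titles match normal brain 1 with NRAS tumor 2 and normal brain 3 with PDGFB tumor 1. Gene positions are from GENCODE vM21 (GRCm38).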

Additional observations from a re-analysis of the deposited data

Results flagged for a closer look

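NRAS tumor 4 stood apart from the other 3 NRAS tumors in 2 annexins. Anxa5 stood at 353.5 FPKM there, with a gap to the next library of 0.857 of the group's range, and Anxa7 at 54.4 FPKM, with a gap of 0.872. Each gap was above Dixon's critical value for 4 samples, and 18 such tests were made, of which chance flags about 1 in 20. The gaps were taken on FPKM, and on the log2 scale used for the other tests they would be smaller. NRAS tumor 4 also had the highest sum of monocyte and macrophage markers (1936 FPKM); their part in these values was not tested.

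For 6 annexins the change against normal brain differed between the models by the direct test of NRAS against PDGFB tumors, which is the difference of the 2 changes because both share the same normal brains. The difference of log2 fold changes, NRAS minus PDGFB, was 2.60 for Anxa2, 2.37 for Anxa3, 2.36 for Anxa4, 1.93 for Anxa5, 1.86 for Anxa7 and 1.30 for Anxa11.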

How the results depend on the processing

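With title number series as covariate, 2 annexins were called in PDGFB tumors against normal brain in place of 6 (all genes: 4768 in place of 8470), and Anxa4 there turned to -0.565; all 8 were called with only the 2 groups in the fit and with array weights. Array weights called 5793 genes between the models in place of 3852. Anxa7 in NRAS tumors against normal brain turned to -0.081 with TPM without small RNA genes, -0.106 with the series as a covariate and within title numbers 1834 to 1838, and without 1 library it ran from -0.158 (NRAS tumor 4 left out; -0.016 with normal brain 3 left out) to 0.176. Anxa6 between the models turned to 0.011 with the series as a covariate and within title numbers 2038 to 2046. The cause was not tested.

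With the replicate block, Anxa7 in NRAS tumors was -0.131, and 6, 7 and 6 annexins were called in NRAS tumors, PDGFB tumors and between the models; Anxa5 was then lower in PDGFB tumors (-0.937, adjusted p = 0.00904 by limma). Of 10 pairs of same-numbered libraries, 2 had a correlation of deviations over 0.1 (range -0.499 to 0.158). Leaving out each library in turn gave 6 to 6, 5 to 7 and 6 to 7 annexins called. TPM without small RNA genes moved the median of all genes in NRAS tumors to -0.126. Depth in reads is unknown, which limits Anxa8 most.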
